A study of Mus musculus with 8 samples.

Results

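Cxcl12, its receptors Cxcr4 and Ackr3, and 7 related genes (the ligands Cxcl1, Cxcl9, Cxcl10, Cxcl14 and Cxcl16, the CXCL16 receptor Cxcr6, and Mif, a cytokine that also binds CXCR4) were followed in the hearts of mouse embryos labelled as WT or as knockouts of Sirt1, which encodes a NAD-dependent deacetylase. Every array probe whose accession belongs to 1 of these 10 genes was kept, which gave 13 of the 41174 probes measured, for 10 of the 19096 genes named on the array. Cxcl12, Cxcr4 and Cxcl16 had 2 probes each and the other 7 genes had 1. All hearts were taken at embryonic day E18.5 from chow-fed mice with no special treatment, of the strain C57BL/6 in the labels and C57BL/6J in the study's methods. The 4 WT hearts were compared with the 4 hearts labelled SIRT1 KO, in which the study's methods describe a whole-body germ-line deletion bred from heterozygous parents. A deletion of that kind is not limited to 1 cell type of the heart. Each heart was hybridised, as Cy3-labelled RNA, to 1 one-color Agilent whole mouse genome array.

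CXC chemokines are small secreted proteins that guide migrating cells through G protein-coupled receptors. CXCL12 acts through CXCR4, which couples to Gi proteins, while ACKR3 (also called CXCR7) binds the same ligand, recruits arrestins and removes it from the surroundings. In the developing heart this axis is known for its part in coronary vessel growth and in the formation of the valves and the septum. CXCL9 and CXCL10 are induced by interferon and attract T cells through CXCR3, and CXCL1 is an NF-κB target that attracts neutrophils through CXCR2.

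Signals are given as log2 of the processed spot signal minus the array's 75th percentile, so that 0 stands for the 75th percentile and 1 unit for a doubling. That percentile was a signal of 939 to 1033 in WT and of 777 to 906 in the hearts labelled SIRT1 KO, 59.5% to 64.9% of probes were well above background on an array, and no spot was saturated. The number of arrays, 4 a genotype, limits the precision of every value. All WT arrays were on 1 slide scanned on 1 day, and all other arrays were on another slide scanned on another day, so that genotype cannot be told apart from slide and scan day. Per the study's legends the hearts of a genotype came from 4 separate embryos. Neither probe of Sirt1 passed the threshold as lower in the hearts labelled SIRT1 KO. The brighter stood at 0.04 ± 0.19 (SD, n = 4) in WT and at 0.58 ± 0.14 in the other hearts (log2 fold change 0.54, SE 0.11, limma adjusted p = 0.0323). The second differed by -0.11 (SE 0.11, limma adjusted p = 0.589). Where these probes lie relative to the deleted part of the gene is not given in the sources used here, so they do not check the labels. Markers of cardiomyocytes were high on all arrays, with a summed scaled signal of 8 genes of 1183 to 1276 in WT and 1186 to 1395 in the hearts labelled SIRT1 KO. Liver markers summed to 10 to 24.1 in WT and 11.5 to 102 in the other hearts, and erythroid markers to 509 to 557 and 440 to 537.

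None of the 8 genes that were tested passed. On its brighter probe the chemokine Cxcl12 was lower in all 4 hearts labelled SIRT1 KO than in any WT heart, at 0.839 of the WT level, and Cxcl14 averaged 1.55 times the WT level, but neither difference passed the threshold over all probes. Of the 13 probes, 11 probes of 8 genes were well above background on all arrays and were tested; Cxcl9 and Cxcr6 were not. None of the 11 tested probes passed an adjusted p of 0.05 in limma, against 4.88% of all 25615 probes tested (3.97% upward and 0.91% downward). At an unadjusted p under 0.05 there were 2, Cxcl12 and Cxcl14, against 21.5% of all probes tested, and the methods' analysis of variance gave 0 and 2. The fitted difference was below 0 for 8 of the 11 probes and above 0 for 3, against 48.3% below 0 among all probes, and the median log2 fold change was -0.13 against 0.01. The scaling and background alternatives put between 6 (normexp) and 10 (median or no scaling) of the 11 below 0. Genotypes did not overlap in 1 of the 11 probes, against 13.7% of all probes tested.

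**Figure D1:**
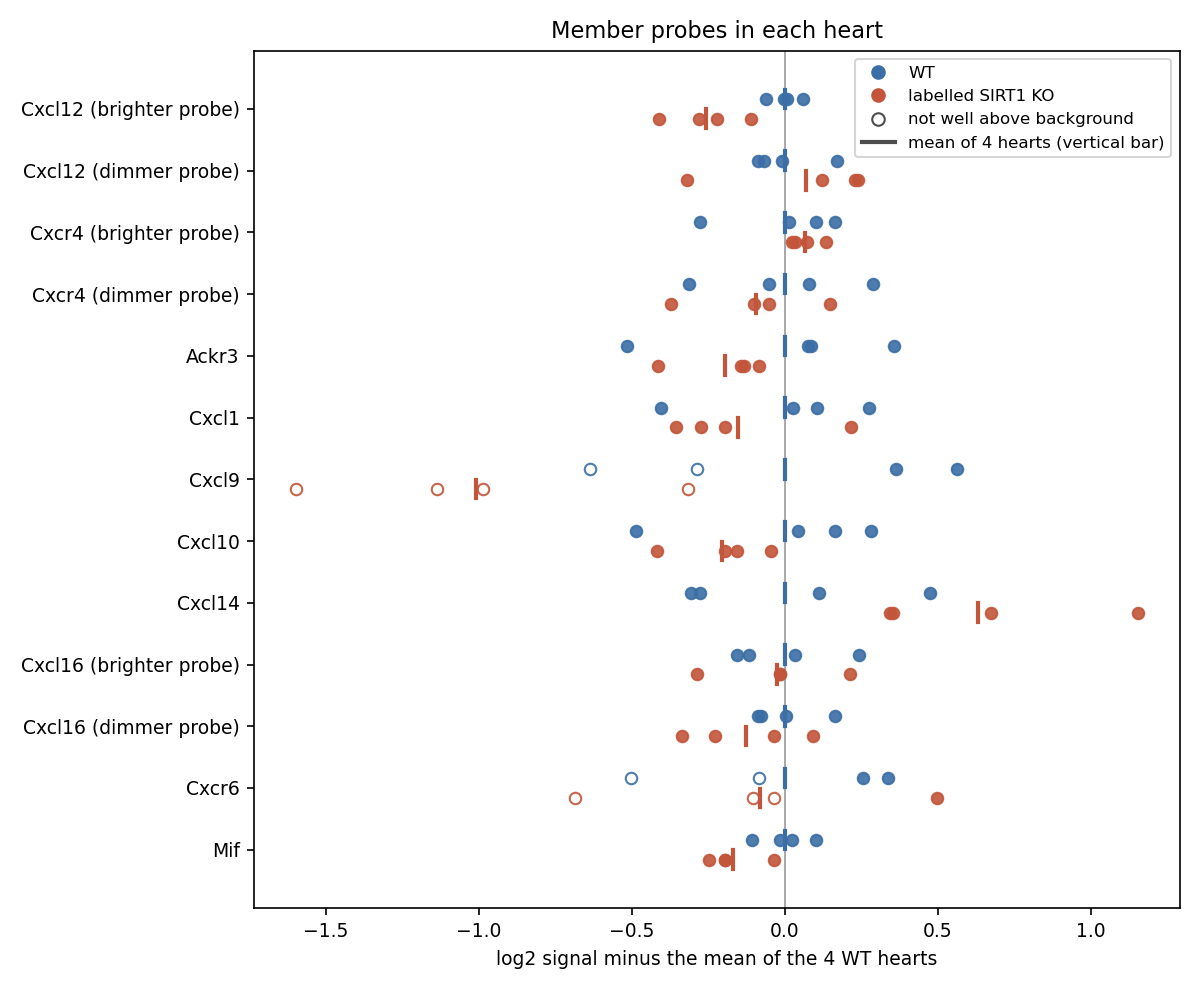
Signal of each of the 13 probes in each heart, as log2 signal minus the mean of the 4 WT hearts (horizontal axis), with WT in blue, hearts labelled SIRT1 KO in red and open circles where the spot was not well above background. The brighter Cxcl12 probe separates the genotypes, from 2.30 to 2.60 against 2.65 to 2.77 before the WT mean is subtracted, while the points of the other 10 tested probes overlap.

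Cxcl12 is shown with the 100 bases before its annotated start, from RefSeq (build GRCm38.p6), 5′ to 3′ on the gene's strand, to show the GC-rich promoter of the gene on which most of what follows turns.
Cxcl12, chr6:117168435-117168534, plus strand: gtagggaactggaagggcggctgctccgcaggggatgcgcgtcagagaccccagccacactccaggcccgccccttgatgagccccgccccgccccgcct
In the 300-base window from 250 bases before to 50 bases after the start there were 20 CG dinucleotides, against a median of 7 over 32851 promoters of that length, 73.5% of which had fewer than 20. None of the motifs searched was found there. They were the interferon-stimulated response element (GAAA repeated after 2 free bases), the GAS element (TTCNNNGAA), the κB site (GGG, 3 free bases and TTCC), the TATA box (TATAAA), the core of the hypoxia response element (ACGTG) and the NRF1 site (GCGCA followed by its own reverse complement), each on both strands. The same 6 motifs were searched in 9 of the 10 genes, all but Cxcl16.

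On the brighter Cxcl12 probe (A_51_P172502) the WT hearts gave 2.72, 2.77, 2.65 and 2.71, and the hearts labelled SIRT1 KO gave 2.60, 2.43, 2.30 and 2.49. All 4 of the latter lay below the lowest WT heart, and the WT hearts lay close together. The means were 2.71 ± 0.05 (SD, n = 4) and 2.46 ± 0.12, a log2 fold change of -0.26 (SE 0.08, 95% confidence interval -0.44 to -0.08, limma adjusted p = 0.113). The unadjusted limma p was 0.0109, and the exact two-sided permutation test gave p = 0.0286, the smallest it can give with 4 against 4. On the linear scale the hearts labelled SIRT1 KO ranged from 0.751 to 0.923 of the WT mean, and the WT hearts from 0.957 to 1.04. The pooled SD of this probe was 0.09, and 15.9% of the tested probes had a smaller one, against a median SD of 0.15. Non-overlap in this direction occurred in 5.11% of all probes tested.

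The other Cxcl12 probe (A_52_P685021), whose accession is another RefSeq transcript of the gene, did not show that difference. It gave 0.18, 0.26, 0.20 and 0.44 in WT and 0.51, 0.50, -0.05 and 0.39 in the hearts labelled SIRT1 KO. Replicate 3 of the latter was the lowest heart of all, and replicates 1 and 2 were the highest. The log2 fold change was 0.07 (SE 0.13, 95% confidence interval -0.23 to 0.37, limma adjusted p = 0.81), and it ranged from 0.01 to 0.20 with an array left out, the latter without replicate 3, the lowest heart on both probes. The brighter probe exceeded the other on the same array by 2.44 ± 0.12 in WT and by 2.12 ± 0.17 in the hearts labelled SIRT1 KO, a difference of -0.32 between genotypes (exact two-sided permutation test, p = 0.0571, and 0.171 after adjustment over the 3 genes with a pair of probes). The mean of both probes differed by -0.10. Which Cxcl12 isoforms each probe binds was not analysed here.

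The call on the brighter probe depended on how arrays were scaled and background was corrected. Subtracting each array's median in place of its 75th percentile gave -0.39 (limma adjusted p = 0.0287), no scaling gave -0.48 (0.0243), and normexp background correction gave -0.34 (0.0204), all past the threshold. Median scaling moved the median of all probes to -0.12, and no scaling moved it to -0.21. Relative to the median of all probes the difference was -0.27 under the 75th percentile, the median and no scaling alike, and -0.39 with normexp, where that median was 0.05. Leaving out each array in turn gave -0.31 to -0.21, never past the threshold.

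**Figure D2:**
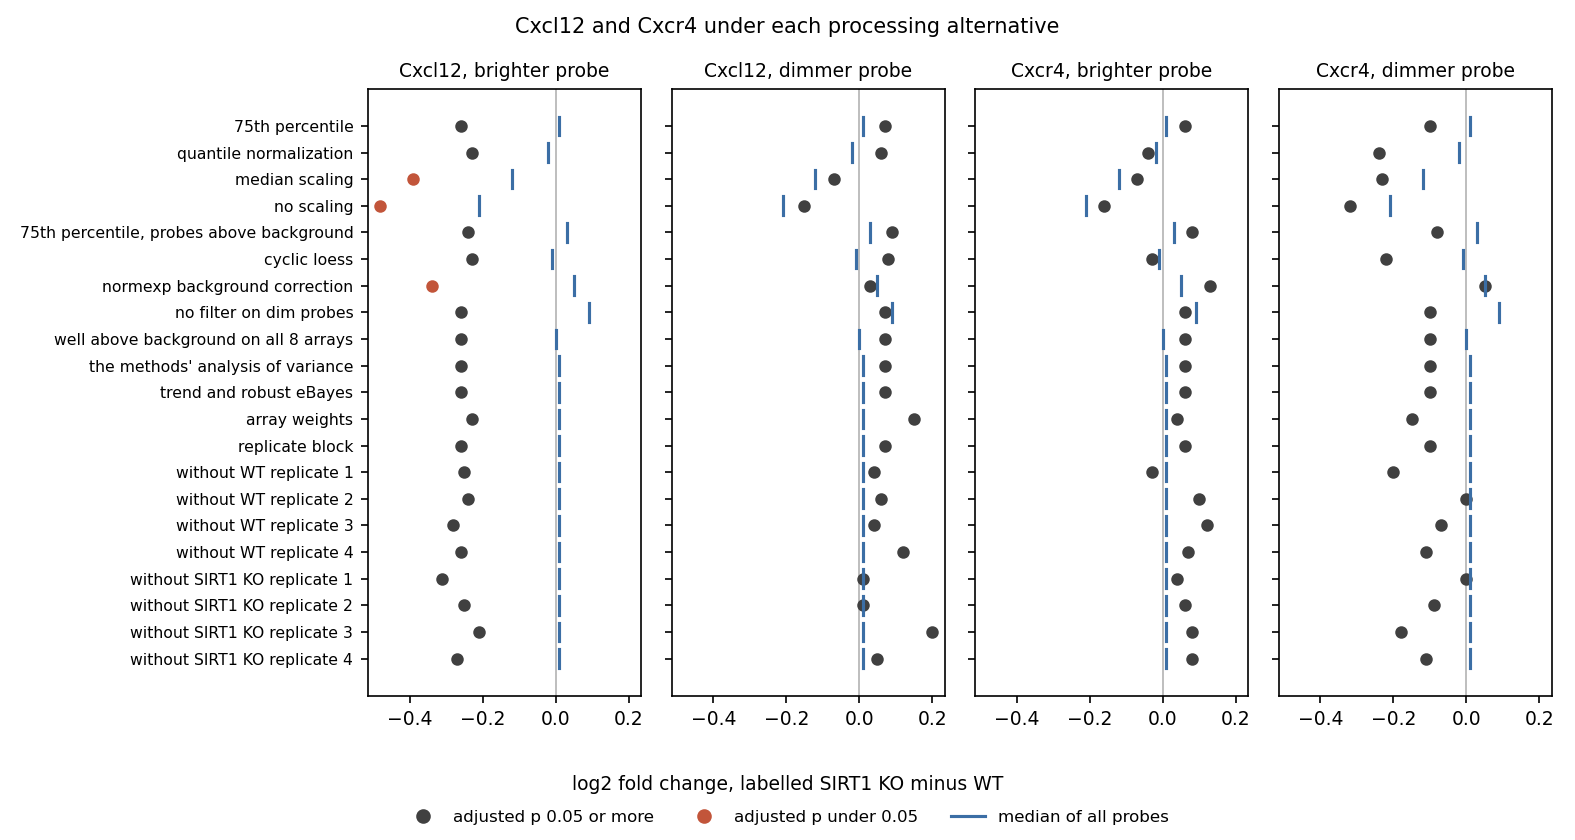
Log2 fold change of both Cxcl12 probes and both Cxcr4 probes (horizontal axes, hearts labelled SIRT1 KO minus WT) under each processing alternative and with each array left out, with red points where the adjusted p was under 0.05 and a blue bar at the median of all probes. The brighter Cxcl12 probe stays between -0.48 and -0.21 in all settings and passes in 3, whereas the brighter Cxcr4 probe crosses 0.

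In whole hearts, fewer cells of a type and less RNA per cell cannot be told apart. Endothelial cells, a known source of Cxcl12 in the heart, were followed by 8 markers (Pecam1, Cdh5, Kdr, Tek, Emcn, Eng, Tie1 and Cldn5), all well above background on all arrays. Their summed scaled signal was 48.8 to 54 in WT and 43.1 to 51.1 in the hearts labelled SIRT1 KO, 7 of the 8 had a fitted difference below 0, against 51.6% of all 13594 genes tested, and their median log2 fold change was -0.12, against -0.01. None of them passed the threshold in limma, against 4.58% of all genes, or in the methods' analysis of variance, and 2 had an unadjusted limma p under 0.05, against 20.4%. In the settings under which Cxcl12 passed, 1 of the 8 (Eng) passed with median scaling, against 7.35% of all genes, and 4 (Eng, Kdr, Pecam1 and Tek) without scaling, against 27.1%, all lower in the hearts labelled SIRT1 KO, and none with normexp. Their median was -0.07 without WT replicate 2. The sums for fibroblast and epicardial markers (214 to 254 in WT, 221 to 249 in the other hearts) and for mural cell markers (130 to 160, and 128 to 176) overlapped as well. Of the 6 mural markers 3 had a fitted difference below 0 and 3 above (Pdgfrb 0.20, Cspg4 0.12 and Acta2 0.10), with a median of -0.01. None passed under the 75th percentile. Myh11 passed with median scaling, Myh11 and Rgs5 without scaling and Rgs5 with normexp, all lower in the hearts labelled SIRT1 KO. The shares of all genes called in these settings were 7.35%, 27.1% and 8.83%. The part of these cell types in the Cxcl12 difference was not tested.

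Of the receptors Cxcr4, Ackr3 and Cxcr6, none passed the test, and the hearts of both genotypes overlapped on all of their probes. Cxcr4 had a TATA motif and an NRF1 motif just before its start, in capitals here within 60 bases of its promoter.
Cxcr4, chr1:128592315-128592374, minus strand: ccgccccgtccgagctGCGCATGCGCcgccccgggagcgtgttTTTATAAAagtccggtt
The NRF1 motif, 59 to 50 bases before the start and a palindrome, occurred in 0.971% of all promoters of 300 bases, and TATAAA in 13.6%. It overlapped no other motif, whereas TATAAA matched on both strands 32 to 25 bases before the start, the pair of matches overlapping. The Cxcr4 window also held 20 CG dinucleotides, and 73.5% of promoters had fewer.

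The brighter Cxcr4 probe (A_52_P585124) gave -3.54, -3.16, -3.10 and -3.25 in WT and -3.13, -3.19, -3.23 and -3.24 in the hearts labelled SIRT1 KO. The latter, with a mean of -3.20 ± 0.05 (SD), all lay inside the WT range, and WT replicate 1 was the lowest heart. The log2 fold change was 0.06 (SE 0.10, 95% confidence interval -0.17 to 0.30, limma adjusted p = 0.754), and its sign turned to -0.03 without WT replicate 1 and under 4 of the scalings (-0.04 with quantile normalization, -0.07 with the median, -0.16 without scaling and -0.03 with cyclic loess). On the other probe (A_52_P565353) the WT hearts gave -4.09, -3.49, -3.70 and -3.83, and the hearts labelled SIRT1 KO gave -4.15, -3.88, -3.63 and -3.83. The genotypes overlapped throughout, with a log2 fold change of -0.10 (SE 0.15, 95% confidence interval -0.43 to 0.24, limma adjusted p = 0.744). It was -0.20 without WT replicate 1, 0.00 without WT replicate 2 or replicate 1 of the hearts labelled SIRT1 KO, -0.24 with quantile normalization, -0.23 with the median, -0.32 without scaling, -0.22 with cyclic loess and 0.05 with normexp.

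Ackr3, the scavenging receptor of CXCL12, gave 1.55, 2.42, 2.15 and 2.14 in WT and 1.65, 1.93, 1.98 and 1.92 in the hearts labelled SIRT1 KO. WT held both the lowest heart, replicate 1, and the 3 highest. The log2 fold change was -0.20 (SE 0.17, 95% confidence interval -0.59 to 0.19, limma adjusted p = 0.534), and it was -0.37 without WT replicate 1, -0.08 without WT replicate 2 and -0.13 without replicate 1 of the hearts labelled SIRT1 KO. WT replicate 1 was also the lowest WT heart on both Cxcr4 probes and for Cxcl1. Cxcr6, the receptor of CXCL16 on T cells and natural killer cells, was near background, above it on 2 WT arrays and 1 array of the hearts labelled SIRT1 KO. Its values were -5.91, -6.33, -5.57 and -5.49 in WT and -5.33, -5.93, -5.86 and -6.51 in the other hearts, which overlapped and were not tested across all probes.

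**Figure D3:**
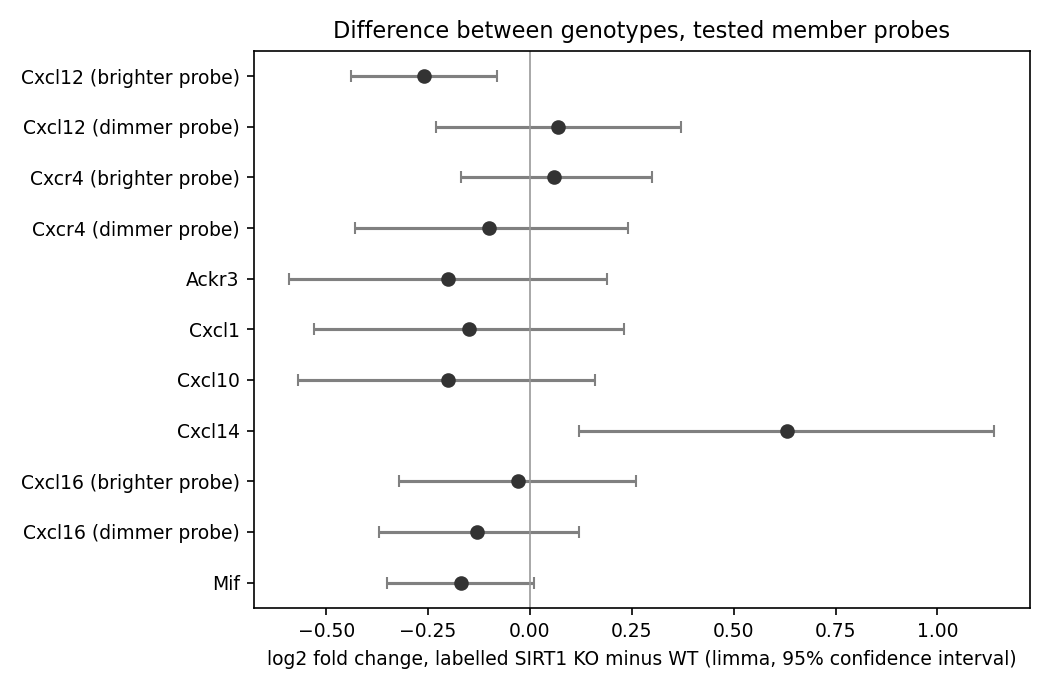
Log2 fold change (hearts labelled SIRT1 KO minus WT) with its 95% confidence interval from limma for the 11 tested probes. The intervals of the brighter Cxcl12 probe (-0.44 to -0.08) and of Cxcl14 (0.12 to 1.14) leave out 0, and the other 9 include it.

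The interferon-inducible ligands Cxcl9 and Cxcl10 averaged lower in the hearts labelled SIRT1 KO without passing a test. Cxcl10 is shown with 130 bases of its promoter and Cxcl1 with 50, because capitals mark there the elements through which interferon and NF-κB are known to act on such genes.
Cxcl10, chr5:92348980-92349109, minus strand: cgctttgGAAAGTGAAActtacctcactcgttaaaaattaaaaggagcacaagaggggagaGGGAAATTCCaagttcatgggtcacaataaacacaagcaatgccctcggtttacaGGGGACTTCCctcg
Cxcl1, chr5:90891145-90891194, plus strand: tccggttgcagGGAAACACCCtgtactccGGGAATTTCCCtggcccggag
In Cxcl10 the capitals are GAAAGTGAAA, the interferon motif, 213 to 204 bases before the start, and then 2 κB motifs at 159 to 150 and 104 to 95 bases. The interferon motif occurred in 3.44% of all promoters of this length and the κB motif in 5.56%. In Cxcl1 the κB motif matched at 89 to 80 bases and, on both strands with overlap, at 71 to 61 bases before the start. No interferon, GAS or κB motif was found in the window of Cxcl9.

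Cxcl10 gave -2.97, -2.73, -2.85 and -3.50 in WT and -3.17, -3.21, -3.43 and -3.06 in the hearts labelled SIRT1 KO. WT replicate 4 was the lowest of all 8 hearts and the other 3 WT hearts were the highest. The log2 fold change was -0.20 (SE 0.16, 95% confidence interval -0.57 to 0.16, limma adjusted p = 0.503). It was -0.36 without WT replicate 4, -0.11 without WT replicate 2, -0.13 without replicate 3 of the hearts labelled SIRT1 KO and -0.07 with normexp background correction. Cxcl9 gave -6.41, -5.21, -5.41 and -6.06 in WT and -6.91, -6.76, -7.37 and -6.09 in the hearts labelled SIRT1 KO. It was well above background in WT replicates 2 and 3 only, so the hearts labelled SIRT1 KO had no more than a bound, which allowed no fold (exact two-sided permutation test on the measured values, p = 0.0571). Cxcl1 gave -5.17, -4.74, -4.49 and -4.66 in WT and -4.96, -4.55, -5.12 and -5.04 in the hearts labelled SIRT1 KO, which overlapped. Its log2 fold change was -0.15 (SE 0.17, 95% confidence interval -0.53 to 0.23, limma adjusted p = 0.642), it ranged from -0.29 (without WT replicate 1) to -0.06 (without WT replicate 3) with an array left out, and normexp background correction turned it to 0.12.

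Of 24 genes of the interferon response, 22 were on the array and 21 were tested; interferon gamma itself (Ifng) was well above background on no array. None passed the threshold in limma or in the methods' analysis of variance, against 4.58% of all 13594 genes tested, and 3 had an unadjusted limma p under 0.05, against 20.4% of all genes. The fitted difference was below 0 for 20 of the 21, against 51.6% of all genes, and the exception, picked out after its value was seen, was Irf1 (0.03, limma adjusted p = 0.861); the scaling and background alternatives put 18 (normexp) to 21 (median or no scaling) below 0. The median log2 fold change was -0.17, against -0.01 for all genes. Isg15, a ubiquitin-like protein induced by interferon, gave 0.15, 0.96, 1.16 and 0.68 in WT and -0.53, 0.50, 0.19 and 0.25 in the other hearts. WT replicate 1 lay among the latter, and the log2 fold change was -0.63 (SE 0.26, limma adjusted p = 0.204).

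The mean of the 21 genes, each centred on its mean over the 8 hearts, was -0.20, 0.35, 0.28 and -0.02 in WT and -0.43, 0.11, -0.03 and -0.05 in the hearts labelled SIRT1 KO. The genotypes overlapped, and WT replicates 2 and 3, in which Cxcl9 rose above background, were the highest. The list's median of -0.17 was -0.06 without WT replicate 2, -0.09 without replicate 1 of the hearts labelled SIRT1 KO, with 14 of 21 genes below 0, and -0.28 without WT replicate 1. Macrophage and leukocyte markers overlapped in their sum (3.46 to 4.94 in WT, 3.21 to 5.37 in the other hearts). Lymphocyte and thymus markers were close to background: 1 of 6 was above it on all arrays, Cd3g was above it on none, and Cxcr3, the receptor of CXCL9 and CXCL10, was above it on none. Their sum was 0.108 to 0.226 in WT and 0.099 to 0.139 in the other hearts, and of the 2 tested Lck differed by -0.70 (limma adjusted p = 0.0679). The part of these cells in the interferon and Cxcl10 values was not tested.

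**Figure D4:**
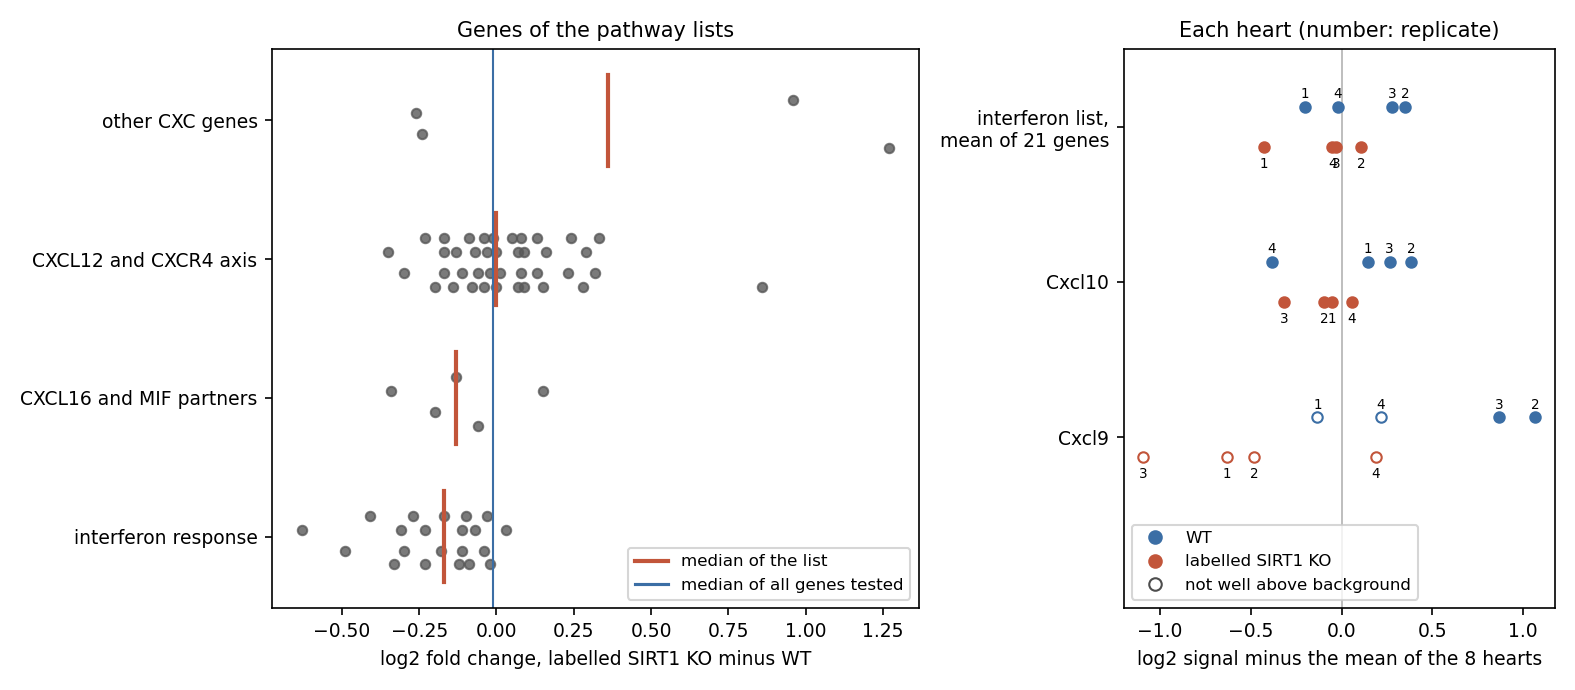
Left, log2 fold change (hearts labelled SIRT1 KO minus WT) of each tested gene of the 4 pathway lists, with the list's median in red and the median of all genes, -0.01, in blue; the 2 rightmost points of the other CXC genes, Cxcl15 and Cxcr2, rest on values not all well above background. Right, log2 signal minus the mean of the 8 hearts for the interferon list, Cxcl10 and Cxcl9 in each heart, numbered by replicate, with open circles for Cxcl9 not well above background: the interferon list leans below 0 in its genes, while the hearts of both genotypes overlap.

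Cxcl14, a chemokine of epithelia and other tissues whose receptor is debated, had the largest fitted difference of the 11 tested probes, upward in the hearts labelled SIRT1 KO. Its promoter is shown over 40 bases, since it holds both a GAS and an interferon motif.
Cxcl14, chr13:56296707-56296746, minus strand: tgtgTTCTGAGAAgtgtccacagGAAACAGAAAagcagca
The GAS motif lies 191 to 183 bases and the interferon motif 172 to 163 bases before the start, and GAS occurred in 8.3% of all promoters of this length. Cxcl14 gave -5.39, -4.64, -5.42 and -5.00 in WT and -4.76, -3.96, -4.44 and -4.77 in the hearts labelled SIRT1 KO. WT replicate 2 exceeded 2 of the latter, and replicate 2 of the latter was the highest of all. The log2 fold change was 0.63 (SE 0.22, 95% confidence interval 0.12 to 1.14, limma adjusted p = 0.151), the exact two-sided permutation test gave p = 0.0857, and the level was 1.55 ± 0.22 (SEM) of the WT mean. The pooled SD was 0.37, and 92.4% of tested probes had a smaller one. The unscaled intensity was 23.7 to 41.3 in WT and 31.7 to 58 in the other hearts. With normexp background correction the difference was 0.35 and passed (limma adjusted p = 0.0319). That setting added an offset of 50, which is of the size of this probe's intensity.

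Cxcl16, a membrane-bound chemokine that is shed by ADAM proteases, passed the test on neither probe. Its brighter probe (A_52_P99888) gave -1.46, -1.10, -1.31 and -1.50 in WT and -1.63, -1.13, -1.36 and -1.36 in the hearts labelled SIRT1 KO, which differed by -0.03 on the log2 scale (SE 0.13, 95% confidence interval -0.32 to 0.26, limma adjusted p = 0.92). The other (A_51_P374203) gave -1.51, -1.27, -1.52 and -1.43 in WT and -1.77, -1.47, -1.34 and -1.66 in the hearts labelled SIRT1 KO, which differed by -0.13 (SE 0.11, 95% confidence interval -0.37 to 0.12, limma adjusted p = 0.536). The latter difference was -0.35 without scaling (limma adjusted p = 0.0416) and ranged from -0.20 (without replicate 3 of the hearts labelled SIRT1 KO) to -0.06 (without replicate 1 of them) with an array left out. The genotypes overlapped on both, and the difference between the 2 probes on an array changed by 0.10 between genotypes (exact two-sided permutation test, p = 0.371).

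Mif gave 6.24, 6.12, 6.03 and 6.16 in WT and 5.94, 5.94, 6.10 and 5.89 in the hearts labelled SIRT1 KO. Of the latter, 3 lay below all WT hearts, and replicate 3 lay among them. The log2 fold change was -0.17 (SE 0.08, 95% confidence interval -0.35 to 0.01, limma adjusted p = 0.246; exact two-sided permutation test, p = 0.0571), which is a level of 0.888 ± 0.029 (SEM) of the WT mean. Without scaling the difference was -0.39 (limma adjusted p = 0.0178), and with normexp background correction it was -0.36 (0.016). Of 6 genes that process CXCL16 or bind MIF or belong to its family, 5 were tested, 4 had a fitted difference below 0, against 51.6% of all genes, and none passed in limma (4.58% of all genes) or in the methods' analysis of variance. An unadjusted limma p under 0.05 was reached by 1, against 20.4% of all genes. Cd44, which signals with the MIF receptor CD74, had the smallest p, with 1.38, 1.80, 1.21 and 1.37 in WT and 1.12, 1.32, 0.98 and 0.97 in the hearts labelled SIRT1 KO. Its ranges overlapped, and its log2 fold change was -0.34 (SE 0.14, limma adjusted p = 0.193). Ddt, the closest relative of Mif, differed by -0.20 (SE 0.11, limma adjusted p = 0.324).

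Of 44 other genes of the CXCL12 axis, 40 were tested, and none passed the threshold in limma, against 4.58% of all genes, or in the methods' analysis of variance. An unadjusted limma p under 0.05 was reached by 10 of the 40, against 20.4% of all genes. The fitted difference was above 0 for 21 and below 0 for 19, against 51.6% of all genes below 0, and the median was 0.00. Calcrl, the receptor of adrenomedullin, a vascular peptide that ACKR3 also removes, gave 2.01, 2.31, 2.07 and 2.17 in WT and 1.70, 1.94, 1.80 and 1.90 in the hearts labelled SIRT1 KO. All of the latter lay below all WT hearts, with a log2 fold change of -0.30 (SE 0.09, limma adjusted p = 0.0964). Ctsg, a neutrophil protease that cleaves CXCL12, gave -4.49, -4.90, -4.52 and -4.41 in WT and -2.93, -4.15, -3.67 and -4.13 in the hearts labelled SIRT1 KO. Here all of the latter lay above all WT hearts, with a log2 fold change of 0.86 (SE 0.26, limma adjusted p = 0.0972). Both genes were named for having the smallest p of the list, so their lack of overlap is no separate result. Among all probes tested, 13.7% did not overlap in 1 direction or the other. Calcrl passed under median scaling, without scaling and with normexp background correction.

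The remaining CXC ligands and receptors were mostly near background. Of 14 genes, 13 were on the array and 4 were tested. None of the 4 passed in limma, against 4.58% of all genes, or in the methods' analysis of variance. None had an unadjusted limma p under 0.05, against 20.4% of all genes, and so few genes cannot be told apart from these shares. Cxcl15, known as a lung chemokine, gave -7.69, -5.42, -5.31 and -5.69 in WT and -3.82, -4.0, -5.34 and -5.87 in the hearts labelled SIRT1 KO (limma adjusted p = 0.275). It was well above background on 2 arrays of each genotype, so no fold is given. Replicates 1 and 2 of the latter were the highest and replicates 3 and 4 lay within the WT range. Of 5 lung markers none was tested. Sftpa1, Sftpb and Nkx2-1 were above background on no array, Sftpc on 1 WT array and 2 others, and Scgb1a1 on 0 WT arrays and 2 others, its measured means being -7.15 in WT and -5.05 in the hearts labelled SIRT1 KO without overlap. The lung sum was 0.0236 to 0.0899 in WT and 0.0648 to 0.117 in the other hearts, and its part in the Cxcl15 values was not tested. Cxcr2, the neutrophil receptor of CXCL1, gave -6.50, -5.97, -4.84 and -6.56 in WT and -4.84, -4.58, -4.31 and -6.31 in the hearts labelled SIRT1 KO, which overlapped (limma adjusted p = 0.299). It was well above background on 1 WT array and 3 others, so it was tested by way of the hearts in which it was higher, and no fold is given. The other 2 tested genes, Pf4 and Ppbp, were well above background on all arrays. Both had a fitted difference below 0, of -0.24 (SE 0.13, limma adjusted p = 0.326) and -0.26 (SE 0.40, limma adjusted p = 0.748), and their genotypes overlapped.

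Cxcl12 and Cxcr4 did not follow each other from heart to heart. After each genotype's mean was subtracted, Pearson's r between their brighter probes over the 8 arrays was 0.06, given as a description of arrays that share their scaling and slide. Among 13535 genes compared in this way, Adamts8, Fzd1 and Tfap4 were most like Cxcl12 (r of 0.992, 0.986 and 0.980), and Cdk17, Trmo and Cnfn were most like Cxcr4 (0.971, 0.960 and 0.957). The highest r of so many genes over 8 arrays can be large without any relation, and a relation was not tested. Among the members, Cxcr4 was closest to Cxcl1 (0.75) and Ackr3 (0.73), in each of which WT replicate 1 was the lowest WT heart, and farthest from Mif (-0.67), and Cxcl12 was closest to Cxcl10 (0.37).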

How the data were processed

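RNA was extracted with TRIzol and Qiagen columns with DNase I, and 500 ng of each total RNA was labelled with Cy3. Per the file headers, Agilent Feature Extraction (12.0.0.7; 12 in the submitters' processing notes) gave the deposited intensity of each spot after background subtraction, with no scaling between arrays; the series' value table holds the same intensities. After control and outlier spots were removed, log2 was taken, each array's 75th percentile subtracted and spots of a probe averaged. Accessions were matched to RefSeq names (GRCm38.p6), which named 28223 probes (68.5%); the array design names another build, so no gene coordinates but those of the printed promoters are given. Testing took in the 25615 probes that 4 or more of the 8 arrays measured well above background, with limma 3.58.1 (R 4.3.3; lmFit, eBayes, genotype only; Benjamini-Hochberg over all, threshold 0.05). The test was tried on simulated arrays first. Genes with several probes were taken by the brightest over all arrays, and all probes are given. Of each pathway list, the 2 genes with the smallest p are named, except 1 gene that is not reported here. The members, lists, motifs and tests were chosen with earlier results of these data known. The methods' test, an analysis of variance with Benjamini-Hochberg correction, was computed with genotype as its only factor. Alternatives covered scaling, background correction (normexp on median spot signals with an offset of 50), filters, tests and each array left out.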

Additional observations from a re-analysis of the deposited data

How the results depend on the processing

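Under the alternatives to the 75th percentile, the brighter Cxcl12 probe kept its direction and passed the threshold with median scaling (-0.39), no scaling (-0.48) and normexp background correction (-0.34); leaving out each array gave -0.31 to -0.21. The brighter Cxcr4 probe changed sign with quantile normalization (-0.04), median scaling (-0.07), no scaling (-0.16) and cyclic loess (-0.03), and ranged from -0.03 to 0.12 with an array left out; the mean of both Cxcr4 probes gave -0.02 and that of Cxcl12 -0.10. The dimmer Cxcl12 probe turned to -0.07 with median scaling and -0.15 without scaling. Normexp turned Cxcl1 to 0.12 and the dimmer Cxcr4 probe to 0.05. The brighter Cxcl16 probe turned to 0.01 with array weights and ranged from -0.11 to 0.06 with an array left out. The cause of these sign changes was not tested. Median scaling, no scaling and normexp called 1, 3 and 3 of the 11 member probes, against 7.43%, 24.8% and 10% of all probes, and 1, 2 and 3 of the 8 member genes, against 7.35%, 27.1% and 8.83% of all genes. They called 2, 7 and 4 of the 40 genes of the CXCL12 axis list. The interferon list had 1 call with median scaling and 5 without scaling, and the CXCL16 and MIF partners had 3 without scaling and 1 (Cd44) with normexp. The difference between the Cxcl12 probes was -0.37 with normexp (exact two-sided permutation test, p = 0.0286) and -0.40 to -0.26 with an array left out; for Cxcr4 the latter range was 0.05 to 0.25 and for Cxcl16 0.04 to 0.17.

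Over all probes, 1250 were called, from 546 by the methods' analysis of variance and 657 without WT replicate 3 to 1904 with median scaling, 2566 with normexp and 6352 without scaling. Of the calls 81.4% were higher in the hearts labelled SIRT1 KO, a share of 70.5% under cyclic loess, 63.9% under quantile normalization, 35.5% under median scaling and 10.1% when arrays were not scaled. The replicate numbers are shared by both genotypes: same-numbered arrays deviated together with correlations of 0.20, 0.21, 0.06 and 0.14, each array's highest, which is a hint from the data and not from the design. With the numbers as a replicate block, 1185 probes were called, 1 gene of the interferon list (Isg15) passed and no member did. Cxcl9 and Cxcr6, not well above background on most arrays, were given no alternative.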
